A study of Mus musculus with 6 samples.

Results

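The genes described here are 9 markers of bile ducts and of the ductular reaction (Krt7, Krt19, Krt23, Epcam, Sox9, Spp1, Cldn4, Cldn7 and Muc1), taken by gene symbol from a count table of 21983 genes. All 9 were found and all 9 passed the filter on low counts, which left 13153 genes for testing. Cholangiocytes are the epithelial cells that line bile ducts, and they differ from hepatocytes in their keratins, claudins and surface glycoproteins. In chronic liver injury small ductules multiply around the portal tracts, with stellate cells and macrophages close by; this is called the ductular reaction, and thioacetamide (TAA), a toxin activated in hepatocytes, is known to bring it about together with scarring. Krt7, Krt19 and Epcam mark the ductules themselves, while Spp1 and Sox9 are also made by other liver cells.

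Whole liver RNA came from 6 C57BL/6 mice, each given TAA in the drinking water at 400 mg/L for 16 weeks. The 3 knockout mice (numbers 49, 82 and 88) are labelled Lrat-Cre; Prmt1f/f, which joins a Cre recombinase under Lrat, a gene of hepatic stellate cells, to a floxed allele of Prmt1, an arginine methyltransferase. The 3 control mice (42, 83 and 90) are labelled Prmt1f/f and have the floxed allele alone. No mouse went without TAA, so how far TAA itself raised these genes was not measured. The labels give 10 weeks as the age without relating it to the TAA period, and no sex. Lrat-Cre is known to act in stellate cells, and duct cells are not its known target. Which cells made these transcripts was not measured in whole liver RNA.

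Libraries held 13303884 to 16462278 counts. Prmt1 had 38.9, 44.4 and 49.8 CPM (counts scaled to a common library size) in control mice 42, 83 and 90 and 35.8, 24.7 and 25.8 CPM in knockout mice 49, 82 and 88. Every knockout liver was under every control liver, with a log2 fold change of -0.62 (SE 0.20) and an adjusted p of 0.347 (edgeR). Of 12 markers of cholangiocytes, 5 of which are among the 9 genes, all had counts and 11 were tested. The markers summed to between 295 and 460 CPM in control livers and between 193 and 365 CPM in knockout livers, so duct epithelium was represented in every library. In whole tissue, fewer duct cells and less RNA per duct cell cannot be told apart.

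No gene of the 9 passed an adjusted p of 0.05 between genotypes, and neither did any of the 13153 genes tested with edgeR's quasi-likelihood test (0%). DESeq2 called 0 of the 9 lower, against 0.936% of all genes, limma-voom 0 and limma-voom with library weights 0, against 1.96%. All 9 fitted log2 fold changes were below 0 (52.7% of all genes were), with a median of -0.76 against -0.02 over all genes tested. At an unadjusted p under 0.05, 3 of the 9 were lower in knockout livers in edgeR (Cldn4, Muc1 and Cldn7), against 5.95% of all genes, and 0 were higher, against 5.06%. The 3 mice of each genotype were fully apart in 1 of the 9, Cldn4, in the lower direction, against 7.95% of all genes, and in 0 in the higher direction, against 8.94%. The members form a scale from Cldn4, whose knockout mean was 33.2% of the control mean, to Krt23, at 99.3%.

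**Figure D1:**
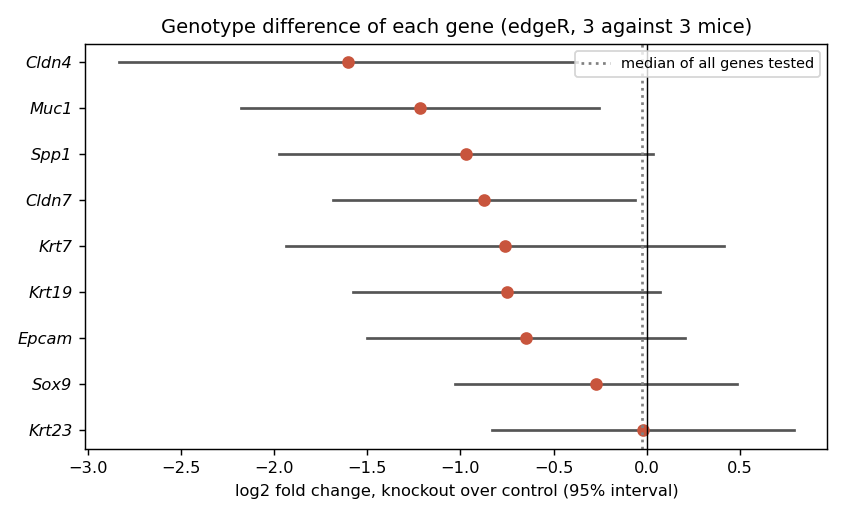
Log2 fold change of knockout over control with its 95% interval for each gene (points and lines; edgeR, 3 against 3 mice), and the median of all genes tested (dotted line). Intervals of Cldn4, Muc1 and Cldn7 end below 0, and those of the other 6 genes include it.

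The sequence just upstream of 4 genes is shown: Cldn4, Muc1 and Cldn7, the 3 whose 95% interval of the fold change lay below 0, and Krt23, the gene with the fold change nearest to 0. Each run is the 250 bases before the first transcript start listed by RefSeq for GRCm38.p6, read 5′ to 3′ on the strand of the gene. Capitals mark exact matches to the searched motifs.
Cldn4, chr5:134946935-134947184, minus strand: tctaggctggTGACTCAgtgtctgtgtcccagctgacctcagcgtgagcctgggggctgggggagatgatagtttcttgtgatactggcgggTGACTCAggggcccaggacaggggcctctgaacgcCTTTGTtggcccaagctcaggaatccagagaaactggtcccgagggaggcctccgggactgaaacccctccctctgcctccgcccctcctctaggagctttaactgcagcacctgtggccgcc
Muc1, chr3:89228806-89229055, plus strand: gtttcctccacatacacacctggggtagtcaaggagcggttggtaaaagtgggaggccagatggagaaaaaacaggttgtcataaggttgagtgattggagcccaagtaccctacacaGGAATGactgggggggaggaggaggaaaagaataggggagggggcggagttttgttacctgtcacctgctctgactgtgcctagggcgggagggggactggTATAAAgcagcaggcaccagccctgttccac
Cldn7, chr11:69964529-69964778, plus strand: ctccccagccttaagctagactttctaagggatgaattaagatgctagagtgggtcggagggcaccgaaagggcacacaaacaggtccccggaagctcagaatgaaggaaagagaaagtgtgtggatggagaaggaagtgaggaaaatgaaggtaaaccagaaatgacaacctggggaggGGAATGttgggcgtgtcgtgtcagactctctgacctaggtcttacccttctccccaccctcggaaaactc
Krt23, chr11:99493121-99493370, minus strand: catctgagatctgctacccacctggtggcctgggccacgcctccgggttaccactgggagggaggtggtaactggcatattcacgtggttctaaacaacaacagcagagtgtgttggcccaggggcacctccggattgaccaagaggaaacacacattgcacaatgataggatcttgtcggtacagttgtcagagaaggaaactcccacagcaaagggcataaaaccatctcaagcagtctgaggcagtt

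Among the motifs searched on both strands were GGAATG for TEAD factors, TGGGAA for RBPJ (the DNA-binding partner of Notch), TGANTCA for AP-1, ACAAAG for SOX factors and TATAAA for the TATA box. The window searched ran from 250 bases before to 50 bases after the start, and 7 of the 9 genes had one. Matches in the 7 were counted in the window listed first for each gene, while the share of all windows includes every window of genes that have several. TEAD letters were present upstream of Muc1 (at position -132 relative to the start) and Cldn7 (at -70), that is in 2 of 7 genes and in 14.7% of 32851 windows of all genes. Cldn4 had AP-1 letters at -240 and -158 relative to its start, the only match among the 7, against 7.81% of all windows. SOX letters were found in Cldn4 and Spp1, against 18.7% of windows, and TATA letters in Muc1 and Spp1, against 13.6%. RBPJ letters were in 0 of 7, against 25.6% of windows, though a further window of Cldn7 that was not counted held them at -164. The windows of Krt23, Krt7 and Epcam held no match to any of these motifs. These are matches of letters and not measured sites.

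Krt7, Krt19 and Krt23 encode intermediate filament proteins; keratins 7 and 19 are the classical stains for bile duct epithelium. Krt19 (chr11:100140810-100148665, minus strand) stood at 17, 39.4 and 25.7 CPM in control mice 42, 83 and 90 and at 9.79, 17.2 and 21.9 CPM in knockout mice 49, 82 and 88. The groups overlapped, control mouse 42 lying just under knockout mouse 82. The means were 27.4 ± 11.3 and 16.3 ± 6.11 CPM (SD, n = 3), with a log2 fold change of -0.75 (SE 0.36, adjusted p = 0.472, edgeR).

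Krt7 (chr15:101411043-101430313, plus strand) stood at 9.20, 25 and 18.1 CPM in control mice 42, 83 and 90 and at 4.31, 8.39 and 18.2 CPM in knockout mice 49, 82 and 88. Knockout mouse 88 was thus level with control mouse 90, and within knockout livers the highest value was 4.23 times the lowest, the widest ratio within a genotype for any of the 9 genes. The fitted log2 difference was -0.76 (SE 0.52, adjusted p = 0.601, edgeR), so the interval ran from -1.94 to 0.41. An annotated antisense gene overlaps Krt7, and because the strand setting of the counting is not known its reads cannot be told apart from those of Krt7.

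Krt23 (chr11:99477974-99493137, minus strand), an acidic keratin known to be induced in diseased liver, had a fold change near 0. Its levels were 4.4, 9.30 and 4.01 CPM in control mice 42, 83 and 90 and 5.54, 6.07 and 5.98 CPM in knockout mice 49, 82 and 88. All 3 knockout livers lay between control mouse 83 and the other control mice, and they spanned only 1.1-fold. The means were 5.90 ± 2.95 and 5.86 ± 0.285 CPM (SD, n = 3), with a log2 fold change of -0.02 (SE 0.36, interval -0.83 to 0.79). The fold change of Krt19 lies inside that interval, and the difference between the keratins was not tested.

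**Figure D2:**
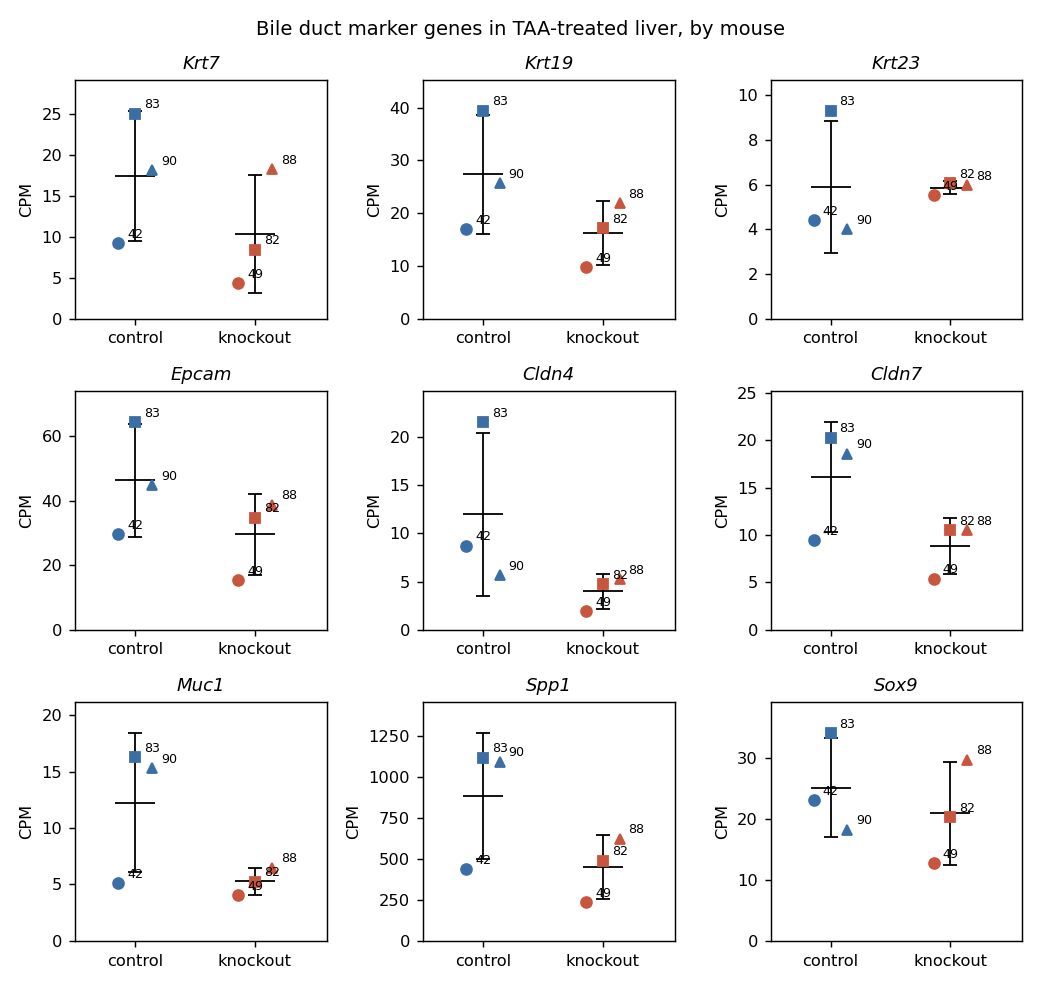
CPM of each gene in each mouse (points, labelled with the mouse number) with the mean and SD of each genotype (bars; n = 3). Control mouse 83 is the highest point of every panel and knockout mouse 49 the lowest of every panel but Krt23.

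Epcam, Cldn4 and Cldn7 encode surface and junction proteins of epithelia. Epcam (chr17:87635979-87651129, plus strand), an adhesion molecule of cholangiocytes and liver progenitor cells, stood at 29.5, 64.3 and 44.8 CPM in control mice 42, 83 and 90 and at 15.3, 34.7 and 38.7 CPM in knockout mice 49, 82 and 88. Groups overlapped, since knockout mice 82 and 88 were above control mouse 42. The fitted log2 difference was -0.65 (SE 0.38, adjusted p = 0.541, edgeR).

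Cldn4 (chr5:134945119-134946934, minus strand), a tight junction claudin, had the largest fold change of the 9. It stood at 8.73, 21.5 and 5.64 CPM in control mice 42, 83 and 90 and at 1.93, 4.72 and 5.26 CPM in knockout mice 49, 82 and 88. The groups did not overlap, although the gap between control mouse 90 and knockout mouse 88 was small: their raw counts were 69 and 73 in libraries of different size. The means were 12.0 ± 8.43 and 3.97 ± 1.79 CPM (SD, n = 3), so the knockout mean was 33.2% of the control mean, with a log2 fold change of -1.60 (SE 0.54, interval -2.83 to -0.38, adjusted p = 0.356, edgeR). Without control mouse 83 the log2 fold change was -0.86 (SE 0.46, adjusted p = 0.73).

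Cldn7 (chr11:69964779-69967885, plus strand), another claudin and a binding partner of EpCAM, stood at 9.47, 20.3 and 18.6 CPM in control mice 42, 83 and 90 and at 5.41, 10.5 and 10.5 CPM in knockout mice 49, 82 and 88. Control mouse 42 was inside the knockout range. The fitted log2 difference was -0.87 (SE 0.36, interval -1.69 to -0.06, adjusted p = 0.428, edgeR).

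Muc1 (chr3:89229057-89233381, plus strand) encodes a membrane mucin of the luminal face of ducts. It stood at 5.13, 16.3 and 15.3 CPM in control mice 42, 83 and 90 and at 4.06, 5.25 and 6.49 CPM in knockout mice 49, 82 and 88. Control mice 83 and 90 were far above all knockout mice and control mouse 42 was among them. The means were 12.2 ± 6.17 and 5.26 ± 1.21 CPM (SD, n = 3), with a log2 fold change of -1.22 (SE 0.42, interval -2.18 to -0.26, adjusted p = 0.368, edgeR).

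Spp1 (chr5:104435118-104441050, plus strand) encodes osteopontin, a secreted phosphoprotein made by duct cells and, in injured tissue, by macrophages. It stood at 437, 1114 and 1090 CPM in control mice 42, 83 and 90 and at 237, 489 and 622 CPM in knockout mice 49, 82 and 88. Control mice 83 and 90 held about the same level and both exceeded every knockout liver, while control mouse 42 was under knockout mice 82 and 88. The means were 880 ± 384 and 449 ± 196 CPM (SD, n = 3), with a log2 fold change of -0.97 (SE 0.44, interval -1.98 to 0.03, adjusted p = 0.459, edgeR). Spp1 supplied between 80.04% and 87.9% of all counts of the 9 genes, so a sum over the 9 would mostly measure Spp1. An annotated transcript on the same strand overlaps Spp1, and how shared reads were counted is not known.

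Sox9 (chr11:112782224-112787760, plus strand) encodes the transcription factor that specifies bile duct cells in development and is also made by periportal hepatocytes and activated stellate cells. It stood at 23.1, 34.1 and 18.2 CPM in control mice 42, 83 and 90 and at 12.7, 20.2 and 29.7 CPM in knockout mice 49, 82 and 88. Knockout mouse 88 was above control mice 42 and 90. The fitted log2 difference was -0.27 (SE 0.33, interval -1.03 to 0.49, adjusted p = 0.768, edgeR).

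Levels of different genes were set side by side as CPM per kilobase of annotated exon. In control livers the order was Spp1 (534 ± 233 CPM per kilobase, SD, n = 3), Epcam (21.1 ± 7.94), Krt19 (14.7 ± 6.08), Cldn7 (8.27 ± 2.98), Cldn4 (6.59 ± 4.64), Sox9 (6.07 ± 1.96), Muc1 (5.21 ± 2.63), Krt23 (3.77 ± 1.88) and Krt7 (2.47 ± 1.12). Spp1 exceeded Epcam, Epcam exceeded Krt19 and Krt19 exceeded Cldn7 in 6 of 6 mice. From Cldn7 down to Krt23 the control means of neighbours were closer than their SDs, and Krt23 and Krt7 differed by more than the SD of Krt7 and less than that of Krt23. Cldn4 was above Sox9 in 1 of 6 mice only, mouse 83. In knockout livers the first 3 places were the same, Sox9 (5.05 ± 2.05) came next and Cldn4 (2.19 ± 0.984) ranked 8 of 9. The exon length of Krt7 (7049 bases) includes long rare forms; with the length of the principal transcript (4094 bases), a setting chosen after the data were seen, Krt7 stood at 4.26 ± 1.94 in control livers, above Krt23, and at 2.52 ± 1.75 in knockout livers, below Krt23 (3.75 ± 0.182).

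The same mice were at the extremes for nearly every gene. Control mouse 83 was the highest of the 6 in 9 of 9 genes, as it was in 17.3% of all genes tested. Knockout mouse 49 was the lowest in 8 of 9, as it was in 19% of all genes. The mean log2 CPM of the 9 genes was 0.61 above the control mean in mouse 83, and relative to that mean it was -0.03 in mouse 90 and -0.58 in mouse 42. It was -1.41 in knockout mouse 49, -0.60 in mouse 82 and -0.27 in mouse 88. The genotypes thus overlapped: knockout mouse 88 exceeded control mouse 42 in 8 of 9 genes and knockout mouse 82 did so in 6.

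**Figure D3:**
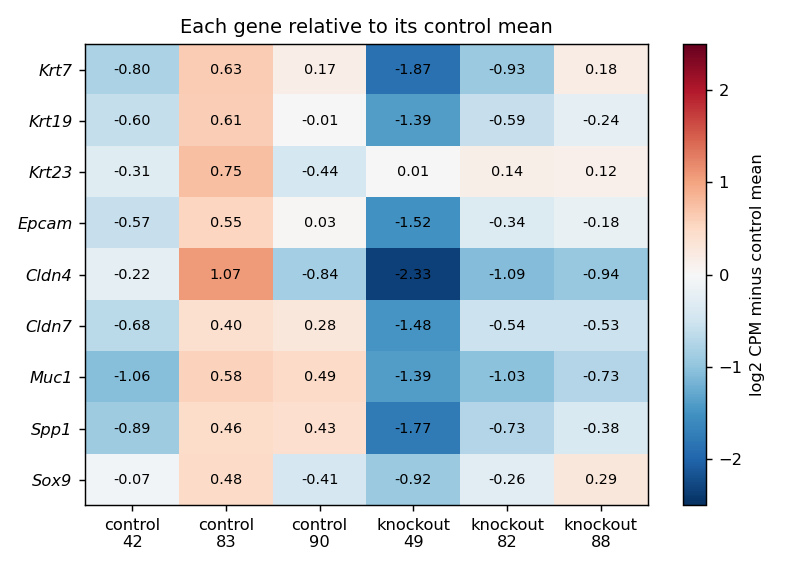
Log2 CPM of each gene (rows) in each mouse (columns) minus the mean of its 3 control values. Mouse 83 is above 0 in every row, and mouse 49 is at -0.92 or less in all rows but Krt23. Mouse 90 is above 0 for Muc1, Spp1 and Cldn7 and below it for Cldn4, Krt23 and Sox9. It lies between for Krt7 (0.17), Epcam (0.03) and Krt19 (-0.01).

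Control mouse 90 stood at different distances below mouse 83 for different genes. Its Spp1, Muc1 and Cldn7 were close to those of mouse 83, which exceeded it by 1.02, 1.06 and 1.09 times. Its Cldn4, Krt23 and Sox9 were far lower, mouse 83 being 3.82, 2.32 and 1.87 times higher. Krt7, Epcam and Krt19 lay between, with mouse 83 at 1.38, 1.43 and 1.53 times mouse 90. Relative to Krt19 counts of the same library, a ratio that needs no scaling between libraries, Spp1 was at 42.4 in mouse 90 and between 24.2 and 28.5 in the other 5 mice. The ratio of Muc1 to Krt19 was 0.596 in mouse 90 and between 0.296 and 0.414 elsewhere. Mouse 90 also had the highest summed macrophage markers, 1296 CPM. In mouse 83 that sum was 1120 CPM and the Spp1 ratio was 28.3. Relative to the control mean, the mean log2 CPM of these markers was 0.44 in mouse 90 and 0.17 in mouse 83. The part of macrophages in Spp1 was not tested.

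Epcam kept the steadiest ratio to Krt19, between 1.56 and 2.02 in the 6 livers. Krt23 was the 1 of 8 genes whose ratio to Krt19 separated the genotypes, at 0.259, 0.236 and 0.156 in control mice 42, 83 and 90 and 0.566, 0.354 and 0.273 in knockout mice 49, 82 and 88. It was picked out after the ratios were seen, and no test was made. The share of all genes whose ratio to Krt19 separates the genotypes was not computed. In CPM, 7.95% of all genes were fully apart in the lower direction and 8.94% in the higher. Pairs of the 9 genes had Pearson's r between 0.22 and 0.99 over the 6 mice (36 pairs, median 0.83, log2 CPM). Spp1 with Cldn7 (0.99) and Krt19 with Epcam (0.98) were the closest, and the 6 lowest pairs, up to 0.44, all hold Krt23. Those points share their library, and both genotypes, so the values describe these 6 livers.

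Related genes from 6 lists chosen for the biology of ducts were set beside the 9. Their counts stand against 5.95% of all genes lower and 5.06% higher at an unadjusted p under 0.05, and 7.95% fully apart lower and 8.94% higher. Among 12 channels, transporters and ciliary proteins of mature cholangiocytes, 9 had a fold change below 0 and 3 above, with a median of -0.12, and 0 passed an unadjusted p of 0.05 in either direction. Sctr, the secretin receptor that drives bile secretion, averaged 2.07 ± 0.578 CPM in the control group and 0.914 ± 0.664 CPM in the knockout group (SD, n = 3; log2 fold change -1.18, SE 0.60, adjusted p = 0.488, edgeR). Cftr, the chloride channel of the duct lumen, stood at 3.52 ± 2.19 and 1.89 ± 0.705 CPM (-0.91, SE 0.50, adjusted p = 0.525). Pkhd1 and Bicc1, whose products act at the duct cell cilium or in cystic disease, had fold changes of -0.00 and -0.14 on the log2 scale.

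Of 19 other keratins, claudins and junction genes, 15 were below 0 and the median was -0.28. At an unadjusted p under 0.05, 3 were lower and 1 was higher, and 4 were fully apart in the lower direction (all genes: 5.95%, 5.06% and 7.95%). Cdh1, the cadherin of epithelial junctions in hepatocytes and duct cells, stood at 136 ± 35.4 and 83.9 ± 19.8 CPM (log2 fold change -0.69, SE 0.26, adjusted p = 0.384, edgeR; SD, n = 3). Cldn12, a claudin, went the other way in its means, at 53.3 ± 8.57 and 74.2 ± 11.3 CPM (0.48, SE 0.19, adjusted p = 0.426). Krt8 and Krt18, the keratin pair that hepatocytes share with duct cells, had fold changes of -0.44 and -0.47, and all 3 knockout livers lay under all 3 control livers in both.

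Of 13 transcription factors of bile duct development and epithelia, 8 were below 0 and 5 above, with a median of -0.35. At an unadjusted p under 0.05, 3 were lower and 1 was higher (all genes: 5.95% and 5.06%). Fully apart were 4 in the lower direction and 2 in the higher (all genes: 7.95% and 8.94%). Elf3, an epithelial ETS factor, stood at 7.73, 16.3 and 14.5 CPM in control mice 42, 83 and 90 and at 3.28, 4.50 and 6.27 CPM in knockout mice 49, 82 and 88. Its groups were apart, with a log2 fold change of -1.46 (SE 0.36, adjusted p = 0.285, edgeR). Onecut1 (HNF6), which acts in hepatocytes as well as in duct development, was apart in the other direction, at 45.6 ± 3.75 and 95.8 ± 47.5 CPM (1.07, SE 0.32, adjusted p = 0.325; SD, n = 3).

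Among 17 tested surface and secreted markers of ductules and progenitor cells, 14 were below 0, with a median of -0.63; 7 were lower and 1 was higher at an unadjusted p under 0.05, and 2 were fully apart in the lower direction (all genes: 5.95%, 5.06% and 7.95%). Ncam1, an adhesion molecule of reactive ductules and also of stellate cells and portal fibroblasts, stood at 6.60 ± 1.44 and 2.34 ± 0.248 CPM (log2 fold change -1.49, SE 0.30, adjusted p = 0.227, edgeR; SD, n = 3). Tnfrsf12a, the TWEAK receptor through which progenitor cells are stimulated, stood at 106 ± 17.7 and 39.8 ± 30.7 CPM (-1.42, SE 0.46, adjusted p = 0.347). Its knockout mean hides a split, because mouse 49 had 75.1 CPM and mice 82 and 88 had 20.0 and 24.3 CPM. Mouse 49, lowest for most duct markers, was thus the highest knockout liver for this receptor.

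The 12 YAP targets and partners had a median of -0.20, with 7 below 0 and 5 above, and 2 lower at an unadjusted p under 0.05. Those were Ankrd1, a nuclear ankyrin repeat protein, at 7.04 ± 2.28 and 3.56 ± 1.03 CPM (log2 fold change -0.99, SE 0.35, adjusted p = 0.372, edgeR; SD, n = 3), and Cyr61, a secreted matricellular protein, at 20.6 ± 7.19 and 11.7 ± 4.84 CPM (-0.81, SE 0.36, adjusted p = 0.453). All 9 osteopontin receptor genes were below 0 (52.7% of all genes were), from -1.17 to -0.02, with a median of -0.31. Of these receptors, 2 were lower at an unadjusted p under 0.05 and 0 were fully apart lower (all genes: 5.95% and 7.95%). Without control mouse 83, or without knockout mouse 49, 7 of 9 were below 0. Some of them, such as Cd44 and Itgb6, are also in the list of ductule markers, so the 2 lists are not separate. Cd44, a receptor of both hyaluronan and osteopontin, stood at 18.4, 43.4 and 50.1 CPM in control mice 42, 83 and 90 and at 19.6, 18.1 and 19.1 CPM in knockout mice 49, 82 and 88 (-0.97, SE 0.33, adjusted p = 0.357). Like Spp1, it was high in control mice 83 and 90 and not in control mouse 42. Itgb6, an epithelial integrin subunit, had -1.17 (SE 0.50, adjusted p = 0.443).

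**Figure D4:**
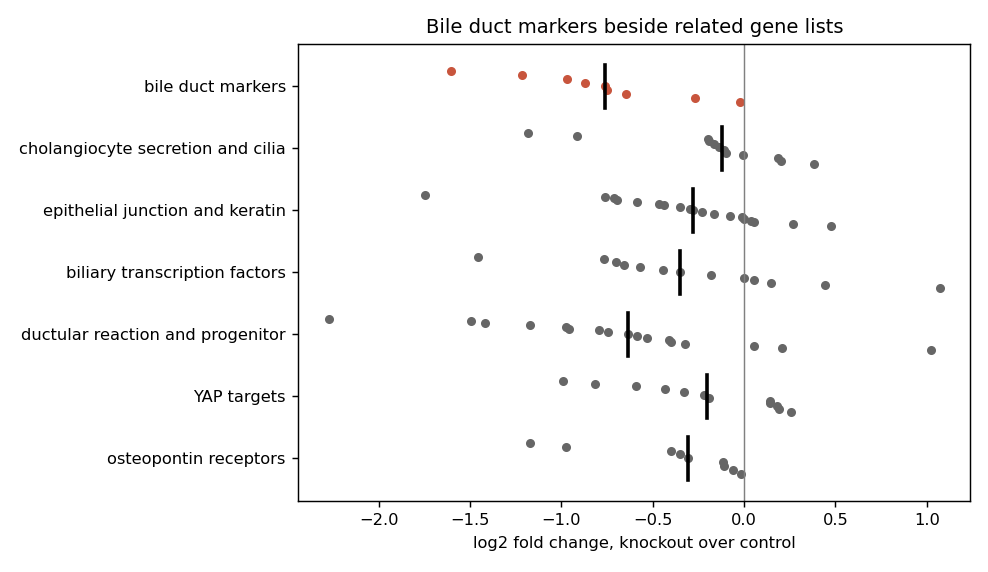
Log2 fold change of knockout over control for each tested gene (points; edgeR) of the 9 bile duct markers and of 6 related lists, with the median of each list (black bars). The medians run from -0.76 for the bile duct markers to -0.12 for secretion and cilia genes.

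Markers of other liver cells also differed between mice and genotypes, not always in the order of mice seen for the 9 genes, and their part in the values above was not tested. Of 10 stellate cell markers 9 were below 0, with a median of -1.05; they summed to between 1251 and 1406 CPM in control livers and between 409 and 821 CPM in knockout livers, with no marker at 0. Mouse 49 was lowest there too. Lrat had a log2 fold change of -1.07 and Col1a1 of -1.1 in these libraries, and Col14a1 (-1.5) and Tagln (-1.04) had the smallest p of the list. Of 9 tested macrophage markers 7 were below 0, with a median of -0.85; the 10 listed ones summed to between 461 and 1296 CPM in control livers and between 446 and 743 CPM in knockout livers. Trem2, a defining marker of scar-associated macrophages, had 0 counts in all 6 libraries, and Itgax (-0.96) and Cd9 (-0.85) had the smallest p. The annotation used for counting is not given, so absent Trem2 transcript cannot be told apart from a gap in counting.

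Of 10 hepatocyte markers 7 were above 0, with a median of 0.44; they summed to between 66194 and 105460 CPM in control livers and between 81186 and 95678 CPM in knockout livers, with none at 0. Their mean was lowest in control mouse 83 (-0.55 relative to the control mean), the mouse with the highest duct markers. Not every marker followed that mean, since Alb stood at 55389, 55636 and 81551 CPM in control mice 42, 83 and 90. Cyp2c37 (2.01) and Tdo2 (1.03) had the smallest p, and Alb was at 0.10. Mesothelial cells, which also make keratins 7 and 19, had low marker levels: 3 of 6 were tested (median -0.31, 2 below 0), and the 6 summed to between 5.32 and 12.3 CPM in control livers and between 2.64 and 12.4 CPM in knockout livers. Msln stood at 1.80, 3.20 and 1.06 CPM in control mice 42, 83 and 90 and at 0.0644, 0.0749 and 2.45 CPM in knockout mice 49, 82 and 88, and Wt1 was at -0.31. Upk1b had no count in 4 of 6 mice and Muc16 in 2. All 9 markers of lymphocytes and neutrophils were below 0 (median -1.64), among them Csf3r (-1.01); they summed to between 23.5 and 94.8 CPM in control livers and between 16.4 and 20.9 CPM in knockout livers.

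The size of the genotype difference in the bile duct markers depended on single mice. The median log2 fold change of the 9 was -0.76 with all mice, -0.40 without control mouse 83 and -0.49 without knockout mouse 49. It lay further from 0 without control mouse 42 (-1.06) and without knockout mouse 88 (-1.06), and was -0.82 without knockout mouse 82 or control mouse 90. With mice 83 and 49 both left out, a choice made after they were seen to be the highest and the lowest, it was -0.13, with 7 of 9 below 0. Muc1 (-0.79, SE 0.52), Cldn4 (-0.53, SE 0.35), Spp1 (-0.46, SE 0.44) and Cldn7 (-0.41, SE 0.36) were then lowest, Epcam (-0.02), Krt7 (-0.03) and Krt19 (-0.13) were near 0, and Sox9 (0.27) and Krt23 (0.52) were above it. Stellate cell markers had a median of -0.82 in the same 4 livers, against -1.05 with all 6.

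The count of genes lower at an unadjusted p under 0.05 moved with the mice as well. It was 3 of 9 with all mice, 0 without control mouse 83 (3.76% of all genes), 1 without knockout mouse 49 (6.58%) and 1 without control mouse 90 (5.41%). It was 6 without control mouse 42 (9.68%), 6 without knockout mouse 88 (5.25%) and 3 without knockout mouse 82 (3.95%). A further fit had a term for mouse number, which sets mice 42 and 49 apart from the 4 numbered over 80. The labels do not name mouse number as a batch. With this term 7 of 9 were lower at an unadjusted p under 0.05, against 8.91% of all genes. Mice 42 and 49 were the lowest control and the lowest knockout for the mean of the 9 (-0.58 and -1.41 relative to the control mean). The term thus takes up part of the spread of these genes within genotypes. With it Cldn7 had -0.86 (SE 0.17 against 0.36 without the term, adjusted p = 0.156, edgeR) and Spp1 -0.95 (SE 0.21 against 0.44, adjusted p = 0.174). Other settings with all mice gave 3 of 9 with RLE size factors (5.96%), with a minimum of 1 CPM in 3 mice (5.85%) and with a robust fit (5.89%). DESeq2 (6.84%) and library weights (10.9%) gave 4, limma-voom (5.42%) 2, and total-count scaling (9.9%) or no low-count filter (6.42%) 5. None of the 9 passed an adjusted p of 0.05 in any of these fits.

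**Figure D5:**
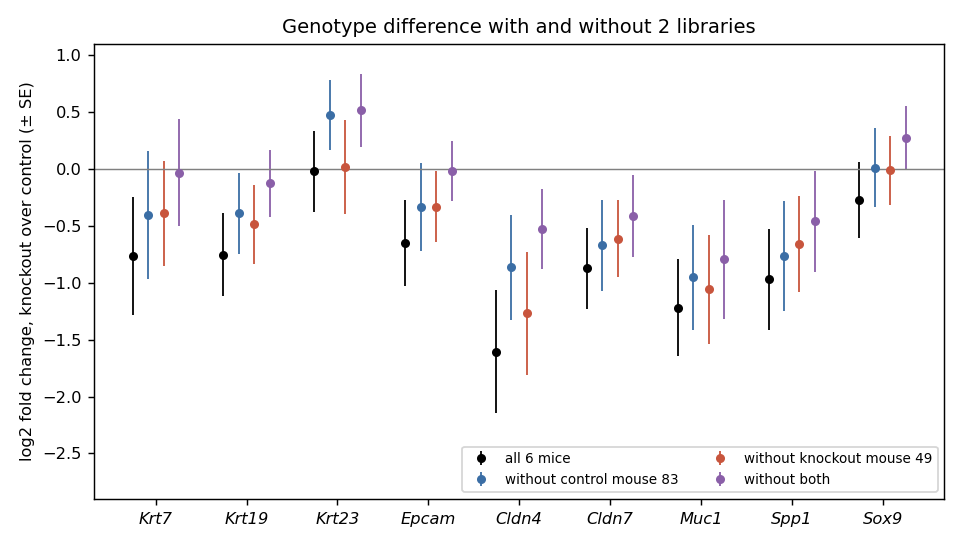
Log2 fold change of knockout over control (points) with its SE (lines) in edgeR fits with all 6 mice, without control mouse 83, without knockout mouse 49 and without both. The values of Krt7, Krt19 and Epcam move to between -0.13 and -0.02 when both are left out, and Muc1 stays at -0.79.

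Genes whose level followed the mean of the 9 most closely over the 6 mice were ranked by Pearson's r of log2 CPM among 12753 genes with a mean of at least 1 CPM. With so few points high values are common, and 452 genes reached 0.9 or more. The 10 closest were Gdf6, Rasa3, Entpd2, Serpinb6a, Tead2, Adamtsl1, Lpcat4, Bgn, Ptpn7 and Cd24a, with r from 0.998 down to 0.986. Gdf6, a secreted ligand of the BMP family, stood at 3.33, 10.3 and 5.56 CPM in control mice 42, 83 and 90 and at 1.29, 3.37 and 4.32 CPM in knockout mice 49, 82 and 88. It ordered the mice as the mean of the 9 did, apart from mice 42 and 82, which were nearly level in both, and its log2 fold change came to -1.11 (SE 0.53, adjusted p = 0.468, edgeR). Bgn, the matrix proteoglycan biglycan, stood at 276, 523 and 339 CPM in control mice 42, 83 and 90 and at 155, 266 and 349 CPM in knockout mice 49, 82 and 88 (-0.56, SE 0.34, adjusted p = 0.563). Cd24a, a surface protein of progenitor cells that is also in the list of ductule markers, had -0.75 (SE 0.32, adjusted p = 0.443).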

How the data were processed

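Total RNA of whole liver was sequenced from 6 mice. TRIzol extraction and a NEBNext Ultra kit were used, per the labels. The authors deposited raw counts per gene symbol in a single table; the submitters' processing notes name mm10 as build and Trimmomatic, FastQC, STAR and HTSeq as tools. The sources used here give neither annotation nor strand setting. Reads of near-identical or antisense genes therefore cannot be told apart. Genotypes came from the sample titles, and columns were matched by mouse number; 0 columns belonged to other samples.

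Counts were filtered with filterByExpr, scaled by TMM and tested on all 6 mice in edgeR 4.0.16 under R 4.3.3 (quasi-likelihood test), genotype being the only term, with Benjamini-Hochberg adjustment over 13153 genes at 0.05. The SE is the fold change divided by the root of F, and 95% intervals from 8.75 degrees of freedom. CPM are counts scaled to TMM-adjusted library size, log2 CPM uses a prior count of 2, and total counts ranged from 13303884 to 16462278 (TMM factors 0.909 to 1.20). Whether the mice differ by litter or preparation is not stated, so p-values measure the spread between these samples. A single-gene permutation test of 3 against 3 mice cannot go below p = 0.1 and was not used.

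The 9 genes, the 12 other lists and the tests were chosen with earlier results of these data known. The genes named are the 9, Prmt1, the 2 of smallest p in each list and the 10 closest in pattern. Krt8, Krt18, Alb, Trem2, Lrat, Col1a1 and Msln were named whatever their p. Pkhd1, Bicc1, Upk1b, Muc16, C1qa, Clec4f, Csf1r, Cd68, Lyz2, Adgre1 and Gpnmb were named after their values were seen. Some genes that this rule takes are not reported here. Positions and exon lengths are from GENCODE M21 on GRCm38, the assembly of mm10, and promoters from RefSeq. Alternatives were RLE or total-count scaling, other filters, DESeq2 1.42.0, limma 3.58.1 (voom, with and without library weights), a robust fit, a mouse-number term, other prior counts and each mouse left out. On counts simulated from these libraries (13042 genes passing the filter), 22% of the genes with a 2-fold change were found, and 85.3% at 4-fold. The changed genes were drawn at random, so these shares are averages over genes and were not measured for the 9. On average 115 genes were called per run, of which 7.67 were false.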

Additional observations from a re-analysis of the deposited data

How the results depend on the processing

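None of the 9 genes passed an adjusted p of 0.05 in any of the 16 alternative fits, and the fold changes of Cldn4, Cldn7, Epcam, Krt7, Krt19, Muc1 and Spp1 were below 0 in all of them. The sign of Krt23 turned with limma-voom (0.025), with the mouse-number term (0.00087) and with mice 83 and 49 both left out (0.52), and ran from -0.28 to 0.48 over the fits without 1 mouse. Sox9 turned to 0.27 with both left out and ran from -0.65 to 0.014 without 1 mouse. The median of the 9 was -0.13 with both left out, by construction smaller because the highest control and the lowest knockout liver were removed, and ran from -1.06 to -0.40 without 1 mouse. Scaling by total counts alone moved the median of all genes by -0.15; relative to all genes the median of the 9 was -0.78 there and -0.74 in TMM scaling. Prmt1 passed with limma-voom and library weights only (-0.74, adjusted p = 0.0384). The causes were not tested. No paired analysis was possible because the mouse numbers are not shared between genotypes. The fewest counts of any of the 9 genes in a library were 30, of Cldn4 in mouse 49.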
